A study of Homo sapiens with 4 samples.

Results

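The change of the androgen response under siOCT1 was taken gene by gene in 22Rv1, an established human line from a castration-resistant prostate tumour. For each gene the DHT response (DHT minus vehicle, log2) with a control siRNA was subtracted from the response with an siRNA against OCT1. A negative change means a less positive response with siOCT1, and a positive change a more positive one. The genes were those with 1 symbol whose probe set was brighter than 95% of the negative control probe sets on each of the 4 arrays. That gave 6464 of 17709 named probe sets and 6458 of 17687 genes.

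Cells were grown in medium with 10% serum, moved to 2.5% charcoal-stripped serum, and transfected with siControl or siOCT1 48 h before ligand. Dihydrotestosterone (DHT, 10 nM) or its ethanol vehicle then followed for 24 h, and total RNA of each of the 4 groups was hybridised to 1 whole-transcript array. The groups are siControl in vehicle, siControl in DHT, siOCT1 in vehicle and siOCT1 in DHT, all in the same line. The change uses all 4 arrays, so no test, error or replicate check exists for it, and every value below is a difference between single arrays. POU2F1, the gene that encodes OCT1, was not analysed here, and the knockdown itself therefore has no check in these values.

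DHT is the most potent natural androgen. Its nuclear receptor binds enhancers together with pioneer and partner factors, switches on genes of secretion, lipid and polyamine metabolism in prostate epithelium, and lowers another set of genes. OCT1 is a POU-domain factor that recognises the octamer element, and it is known as one of the partners found at androgen-bound enhancers in prostate cancer cells. A shift of the DHT response can come from the vehicle level, from the DHT level or from both, and both are therefore given for each gene.

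Of 12 luminal prostate epithelial markers with a probe set, 9 lay above the negative control percentile on every array (CDH1, EPCAM, ESRP1, FOXA1, HOXB13, KRT18, KRT19, KRT8 and STEAP2). All 4 basal, 4 endothelial and 5 immune markers were above it on no array, 6 of 8 stromal markers likewise, and 2 of 7 neuroendocrine markers (SCG3 and SYP) were above it throughout. This limit was 6.62 (vehicle) and 6.99 (DHT) with siControl, against 7.39 and 6.91 with siOCT1, so it was highest on the siOCT1 vehicle array. Of all named probe sets, 581, 639 and 697 exceeded it on 1, 2 and 3 arrays and were left out. Genes whose signal drops out on an array are therefore not among the 6458: SGK1, AKAP12 and STEAP4 were above it only on the siControl DHT array, and SLC45A3, KLK2 and KLK3 on 2 arrays each.

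The median change over the 6458 genes was 0.01, with a standard deviation across genes of 0.62 and a range from -2.89 to 2.92. At a size of at least 1 (2-fold), 261 genes had a positive change (4.04% of the genes) and 401 a negative one (6.21%). DHT responses of at least 2-fold were seen for 453 higher (7.01%) and 173 lower genes (2.68%) with siControl, and for 182 higher (2.82%) and 128 lower (1.98%) with siOCT1. The excess of negative changes depended in size on centring: with arrays centred on the positive control probe sets the counts were 142 positive and 694 negative, and with arrays centred on the median of the genes 307 and 350. Changes of any size were below 0 for 3157 genes (48.9%) and above 0 for 3300 (51.1%). Of 2197 positive control probe sets, 10.7% passed the same size in either direction, against 10.3% of the genes. Of the 612 negative control probe sets, 46.1% did so, but only 4 of them were above the limit on every array. The part of this spread in the gene counts was not tested.

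**Figure D1:**
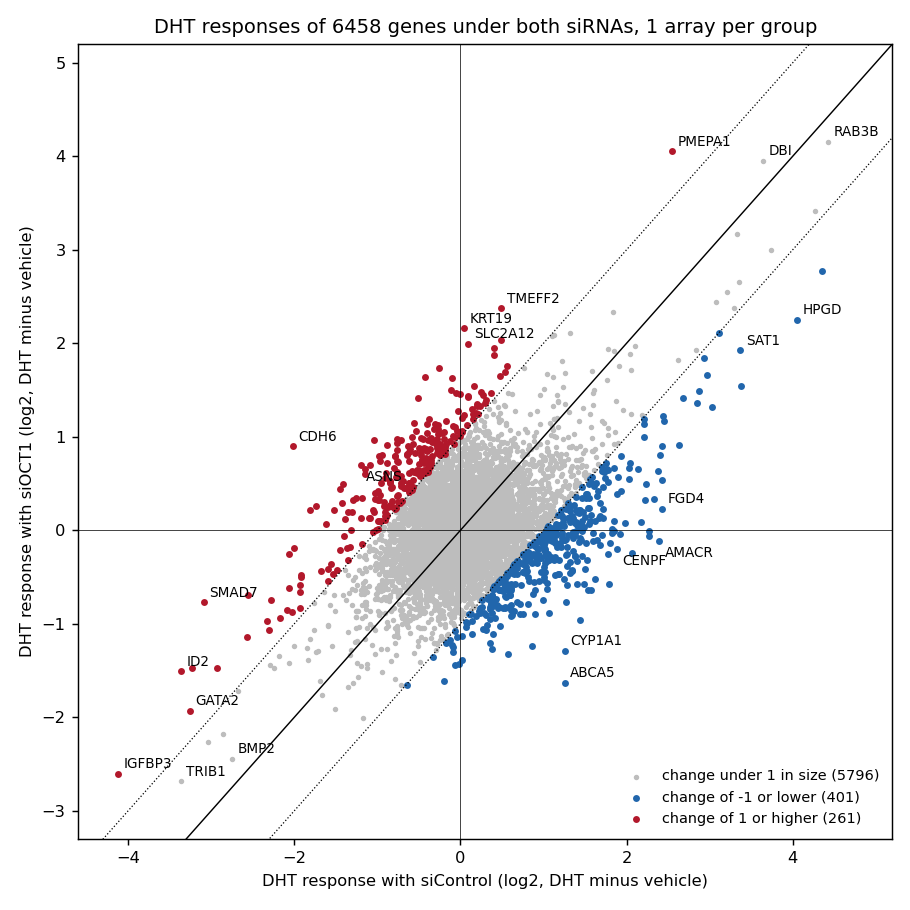
DHT response with siControl (x axis, log2) against the response with siOCT1 (y axis, log2) for 6458 genes, 1 point per gene and 1 array per group. The solid line marks equal responses and the dotted lines a change of 1 in either direction; 401 genes lie below the lower dotted line and 261 above the upper one.

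The siControl response was 1 or higher and the change -1 or lower in 232 genes, of which 230 form the first class and 2, with opposite responses, are given further on. This and the following classes are defined by the same 4 values and are descriptions only. The class had a median response of 1.41 with siControl and 0.03 with siOCT1. AMACR, a racemase of branched-chain fatty acid oxidation and a diagnostic marker of prostate cancer, read 7.90 in siControl vehicle and 10.29 in siControl DHT, against 7.83 and 7.72 with siOCT1. For AMACR the siControl DHT array alone was high, and the change was -2.50. Both of its siOCT1 values lay within 1 of the negative control percentile, as in 11 of the 230 genes, so its small siOCT1 response is read near the floor. WIPI1, an autophagy protein that binds phosphoinositides, read 7.94 and 9.38 with siControl and 8.71 and 7.76 with siOCT1, a change of -2.40.

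In many genes of this class the vehicle level was already higher with siOCT1. The nucleoporin RANBP2 read 8.59 and 10.86 with siControl, and 10.50 and 10.44 with siOCT1. The membrane protein MFSD6 read 10.00 and 12.06, then 12.36 and 12.12, and BAZ2B, a bromodomain protein, 6.71 and 8.51, then 9.18 and 8.60. In these 3 genes siControl vehicle was the low array, well below the other 3. For BAZ2B that value lay just above the limit of 6.62 on that array, so its siControl response is read near the floor. The Golgi protein GOLGB1 (8.23 and 10.50, then 9.94 and 9.92), the TORC2 subunit RICTOR (7.49 and 9.06, then 8.86 and 8.23) and the Cdc42 exchange factor FGD4 (7.22 and 9.65, then 8.74 and 8.96) were also lowest in siControl vehicle. HIBCH, an enzyme of valine breakdown, had a change of -2.14 and ODR4 one of -2.08, again with siControl vehicle lowest. The siControl vehicle values of RICTOR, FGD4 and HIBCH (6.93) also lay within 1 of the limit of 6.62. TFPI, the tissue factor pathway inhibitor, stood far higher with siOCT1 throughout, at 12.31 and 11.67 against 7.87 and 9.41, and changed by -2.18.

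Across the 230 genes, 193 were higher with siOCT1 in vehicle (median difference 0.93) and 159 were lower with siOCT1 in DHT (median -0.41). Over all 6458 genes, 3182 were higher with siOCT1 in vehicle and 3397 lower in DHT. The values that pick the class also enter these differences, so the counts are descriptions only. The siOCT1 difference reached 2-fold in vehicle alone for 100 of them, in DHT alone for 53, in both for 21 and in neither for 56. Among all genes, siOCT1 differences of 2-fold were commoner in vehicle, with 11.1% higher and 14.3% lower, than in DHT, with 7.49% higher and 11.1% lower.

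Among the brighter genes, those whose lowest signal lay above the median of that value, the most negative changes were those of MFSD6, ZFC3H1, ARRDC3, GLUL and NUCB2. GLUL, glutamine synthetase, read 12.34 and 14.26 with siControl and 12.82 and 12.79 with siOCT1. NUCB2, the precursor of nesfatin, read 12.09 and 13.89, then 11.13 and 11.00. In both, the siControl DHT array was the high one, and the changes were -1.95 and -1.93. The arrestin-domain gene ARRDC3 (9.45 and 10.73, then 10.37 and 9.60) changed by -2.04 and the zinc finger gene ZFC3H1 by -2.06.

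**Figure D2:**
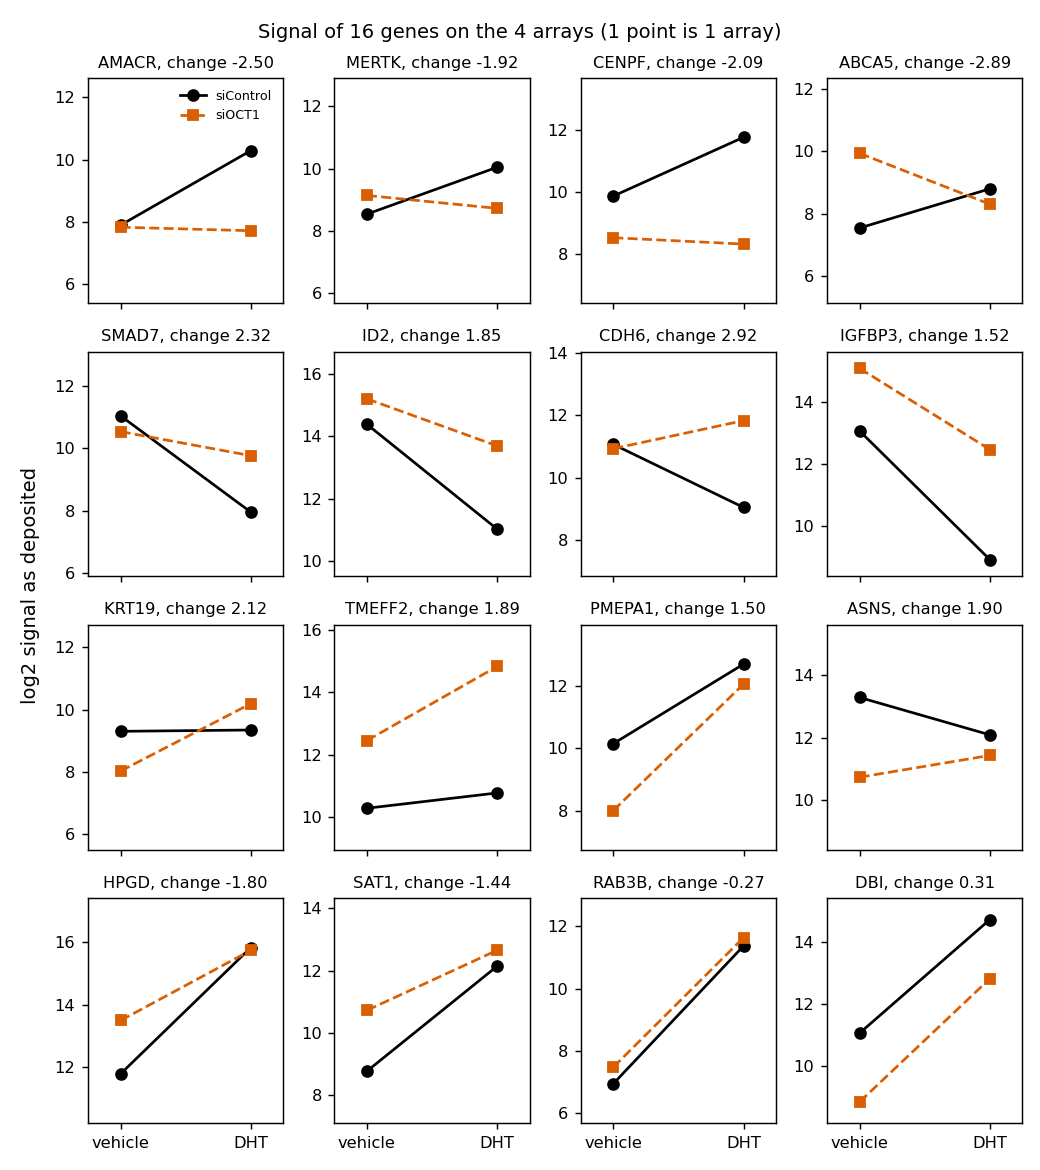
Deposited log2 signal (y axis) of 16 genes in vehicle and DHT (x axis), with siControl as black circles and siOCT1 as orange squares; each point is 1 array and all panels span the same number of log2 units. AMACR is high only in siControl DHT, SMAD7 and CDH6 are lowest in siControl DHT, and RAB3B and DBI are higher in DHT along near-parallel lines.

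Genes at least 2-fold lower with DHT in siControl cells, and with a change of 1 or higher, numbered 63, with a median response of -1.52 with siControl and -0.17 with siOCT1. The median siOCT1 difference was -0.48 in vehicle and 1.14 in DHT. It reached 2-fold in vehicle alone for 19 genes, in DHT alone for 21, in both for 15 and in neither for 8. CDH6, a classical cadherin, had the highest change of all, 2.92: it read 11.07 and 9.04 with siControl and 10.93 and 11.83 with siOCT1. SMAD7, the inhibitory SMAD that damps TGF-beta and BMP signals, read 11.04 and 7.95, then 10.53 and 9.76, a change of 2.32. Both genes differed by under 1 in vehicle and were lowest in siControl DHT. Myoglobin (MB) read 8.82 and 7.08 with siControl and 8.79 and 9.04 with siOCT1, also lowest in siControl DHT. That lowest value of MB lay just above the limit of 6.99 on its array. The synaptic organiser CBLN2 went from 13.73 to 11.18 and from 13.83 to 13.13, and tenascin C (TNC), a matrix glycoprotein, from 8.64 to 7.19 and from 9.92 to 10.36.

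A second layout had a lower vehicle level with siOCT1. The natriuretic peptide clearance receptor NPR3 read 11.08 and 9.28 with siControl, and 8.11 and 8.33 with siOCT1. RCN1, a calcium-binding protein of the endoplasmic reticulum, read 11.23 and 10.19, then 9.14 and 10.10, and FERMT1, the integrin activator kindlin-1, read 9.44 and 8.02, then 8.21 and 8.70. Their changes were 2.02, 2.002 and 1.92. In RCN1 the siOCT1 DHT value lay beside the siControl DHT value, so the difference was in vehicle.

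Genes at least 2-fold higher with DHT in siOCT1 cells, and with a change of 1 or higher, numbered 57, with median responses of 0.02 with siControl and 1.30 with siOCT1. Keratin 19 (KRT19), an epithelial intermediate filament, read 9.30 and 9.35 with siControl and 8.03 and 10.19 with siOCT1, a change of 2.12. TMEFF2, a transmembrane protein of prostate and brain, read 10.29 and 10.78, then 12.46 and 14.83, and the hexose transporter SLC2A12 read 7.25 and 7.34, then 9.14 and 11.13. In these 2 genes the siOCT1 DHT array was the highest of the 4. NOP16, a nucleolar assembly factor of the large ribosomal subunit, read 12.11 and 11.68, then 9.24 and 10.88. The ceramide desaturase DEGS1 (14.37 and 14.11, then 11.34 and 13.08) and the nucleoporin NUP133 (10.06 and 9.54, then 8.08 and 9.49) were likewise low in siOCT1 vehicle and nearer to siControl in DHT. Of the 57 genes, 50 were lower with siOCT1 in vehicle, and 29 passed 2-fold in vehicle alone. Over all 6458 genes, 3276 were lower with siOCT1 in vehicle. The siOCT1 vehicle value that helps to pick this class also enters that difference.

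Genes at least 2-fold lower with DHT in siOCT1 cells, and with a change of -1 or lower, numbered 25 without those 2. ITSN2, an endocytic scaffold, read 9.05 and 9.91 with siControl and 10.23 and 8.99 with siOCT1. MME, the cell-surface peptidase neprilysin, read 8.55 and 9.12, then 10.22 and 8.89, and the chromatin remodeller CHD9 read 8.39 and 8.77, then 10.00 and 8.73. In MME and CHD9 siOCT1 vehicle was the high array and the other three lay within a narrow range. ZMYM1 differed in DHT instead, with 9.03 and 9.39, then 9.09 and 7.88, and PEG10, a retrotransposon-derived gene, read 10.06 and 10.45, then 9.27 and 8.16.

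Responses of at least 2-fold in opposite directions were found for 2 genes. ABCA5, a lipid transporter, read 7.54 and 8.80 with siControl and 9.93 and 8.30 with siOCT1, responses of 1.26 and -1.63 and the lowest change of all, -2.89. CYP1A1, the aryl hydrocarbon receptor target that oxidises polycyclic compounds, read 8.13 and 9.39, then 9.40 and 8.12, a change of -2.54. For the other 285 genes past the size, neither response reached 2-fold by itself. Among them, MYC read 11.87 and 10.98, then 10.27 and 11.18, and CAD, the enzyme that starts pyrimidine synthesis, 9.16 and 8.21, then 7.63 and 8.43. NDC1, a membrane nucleoporin, and SLC18B1, a polyamine transporter, changed by 1.75 and 1.77. MYADM read 11.59 and 12.48, then 10.01 and 9.12, a change of -1.79.

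Some strong responses were alike under both siRNAs. Of the 453 genes higher with DHT in siControl and the 182 in siOCT1, 78 were shared (17.2% and 42.9%), and the change was under 0.5 in size for 38 of these. Of the 78, 53 had the smaller response with siOCT1 (median change -0.26) and 16 had a change past 2-fold. RAB3B, a GTPase of vesicle release, read 6.95 and 11.37 with siControl and 7.48 and 11.64 with siOCT1. The acyl-CoA-binding protein gene DBI read 11.07 and 14.71, then 8.87 and 12.82, so its level was lower with siOCT1 while its response was 3.64 and 3.95. STEAP1B responded by 3.33 and 3.17, the chromatin regulator ATAD2 by 2.11 and 1.97, and TARP, a T cell receptor gamma transcript of prostate cells, by 2.05 and 1.88. Of the genes lower with DHT, 51 were shared (29.5% of those with siControl and 39.8% of those with siOCT1), 29 with a change under 0.5. Of these 51, 36 had the smaller response with siOCT1 (median change 0.30) and 7 a change past 2-fold. BMP2, a bone morphogenetic protein, read 10.66 and 7.91, then 12.95 and 10.51, with responses of -2.74 and -2.44. Albumin (ALB) responded by -1.67 and -1.76, CRIP1 by -1.69 and -1.62, EFNA5 by -1.51 and -1.91, and the tight junction gene OCLN by -1.83 and -1.38. Both DHT values of CRIP1 read 7.03, just above the limits of 6.99 and 6.91 on those arrays. Its similar responses are therefore read near the floor.

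Known androgen-response genes had a negative change more often than a positive one. Of 102 listed, 60 were measured on every array, and 41 of these had a negative change (68.3%, against 48.9% of all genes). The change was -1 or lower for 11 (18.3%, against 6.21%) and 1 or higher for 3 (5%, against 4.04%). Their median change was -0.20 against 0.01 over all genes. A negative change was not always a smaller response: ADAMTS1 responded by 0.01 and -1.13. Of the 25 genes higher by 2-fold under either siRNA, 22 had a negative change. The siControl response that picks most of these 25 also enters the change, so this count is a description only. Responses of 1 or higher were found for 24 of the 60 with siControl and for 18 with siOCT1. Of the 17 higher under both, 15 had the smaller response with siOCT1, against 53 of all 78 such genes. The 17 had median responses of 2.45 and 1.33. HPGD, which inactivates prostaglandins, read 11.78 and 15.83 with siControl and 13.49 and 15.74 with siOCT1, so the DHT levels were nearly equal and the vehicle level was higher with siOCT1. SAT1, the polyamine acetyltransferase, was higher in siOCT1 vehicle too, at 8.77 and 12.14, then 10.72 and 12.65.

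For other members the siOCT1 difference was larger in DHT, or was spread over both states. The receptor tyrosine kinase MERTK read 8.54 and 10.05 with siControl and 9.14 and 8.73 with siOCT1, a change of -1.92. SPDEF, an ETS factor of secretory epithelium, read 10.89 and 12.57, then 11.45 and 11.74. SPDEF differed by under 1 between the siRNAs in either state. The integrin subunit ITGAV responded by 2.85 and 1.37 and TSC22D1 by 2.88 and 1.49, both with lower siOCT1 values in DHT (differences of -1.61 and -1.90). ABHD2 responded by 2.45 and 1.17 and the elongation factor ELL2 by 2.44 and 1.23, with siOCT1 differences of 1.01 and 1.23 in vehicle and of -0.27 and 0.02 in DHT. On the other side, PMEPA1, an androgen- and TGF-beta-induced inhibitor of SMAD signalling, read 10.15 and 12.70, then 8.003 and 12.06, with responses of 2.55 and 4.06. STK39 responded by 3.21 and 2.55, a change of -0.66, and the changes of SLC38A2 (1.08 and 1.02) and ELK4 (1.48 and 1.31) were under 0.5 in size.

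Most genes listed here as lowered by androgen had a positive change. Of 9 measured from 30 listed, 8 had a positive change (88.9%, against 51.1% of all genes), with a median of 0.74. The change was past 2-fold in 3 of them (33.3%, against 4.04%). Only 5 of the 9 were lower by 2-fold with DHT in siControl cells. These 5 were lower by 2-fold with siOCT1 too, all with a less negative response, against 36 of all 51 genes lower under both. The siControl response that picks such genes also enters the change, so these counts are descriptions only. TMEFF2, one of the 3 genes past 2-fold, was not lower with DHT here (0.49 and 2.38), and DPYSL2 responded by -0.46 and -0.47. IGFBP3, a carrier of insulin-like growth factors, read 13.06 and 8.93 with siControl and 15.07 and 12.46 with siOCT1, so both siOCT1 values were higher and the response was -2.60 in place of -4.13. GATA2, a zinc finger factor at androgen-bound enhancers, read 10.26 and 7.002, then 9.52 and 7.59. Its siControl DHT value lay just above the limit of 6.99 on that array. TRIB1 responded by -3.36 and -2.69, ST3GAL1 by -3.04 and -2.27 and FOLH1, the prostate-specific membrane antigen gene, by -2.06 and -1.42.

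Among genes of TGF-beta and BMP signalling, many of them feedback inhibitors, 6 of 16 measured genes had a positive change past 2-fold and none a negative one. The 6 are 37.5% of the list, against 4.04% of all genes. Among them is PMEPA1, whose positive response was larger with siOCT1, as given above. In 5 of the 16 genes the change was negative, among them SKIL (-0.76). Median responses of the list were -0.43 with siControl and -0.45 with siOCT1. ID2, a repressor of basic helix-loop-helix factors and a BMP target, read 14.39 and 11.03 with siControl and 15.21 and 13.70 with siOCT1, with responses of -3.36 and -1.51. Its relatives ID1 and ID3 responded by -2.03 and -0.88, and by -2.57 and -1.14. SMAD6, the other inhibitory SMAD, read 9.17 and 7.10, then 8.87 and 8.25. In SMAD6, as in SMAD7, the vehicle values lay close and siControl DHT was the low array. Both siControl DHT values lay within 1 of the limit of 6.99 on that array, SMAD6 just above it. The ligand gene BMP2 had the 2 similar responses given above, while SMAD2 (0.05 and 0.18), SMAD4 (-0.62 and -0.28) and the receptor BMPR2 (0.22 and -0.20) had responses under 1 in size. The median of this list was 0.32 and stayed between 0.11 and 0.45 over the centrings tried.

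Genes linked to ATF4, the factor of the amino acid stress response, had negative responses with siControl and positive ones with siOCT1, by their medians. The list holds ATF4 itself, genes of amino acid supply, tRNA synthetases and stress regulators such as TRIB3. Of 19 measured, 18 had a positive change (94.7%, against 51.1% of all genes), 3 past 2-fold (15.8%, against 4.04%). Their median change was 0.71, with median responses of -0.50 with siControl and 0.32 with siOCT1. Asparagine synthetase (ASNS) read 13.29 and 12.09 with siControl, and 10.73 and 11.43 with siOCT1. The arginine transporter SLC7A1 read 12.52 and 11.37, then 9.92 and 10.52, and PSAT1, of serine synthesis, 15.92 and 14.73, then 14.28 and 14.62. In all 3 genes siControl vehicle was the highest array. ATF4 itself responded by -0.58 and 0.20.

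Glycolysis and hypoxia genes resembled them, with 15 of 17 changes positive (88.2%) and 3 past 2-fold (17.6%), against 51.1% and 4.04% of all genes. Their median responses were -0.54 with siControl and 0.08 with siOCT1. The aldolase ALDOC read 12.28 and 10.90 with siControl and 9.79 and 9.91 with siOCT1, and the phosphoglycerate kinase PGK1 12.93 and 11.90, then 10.71 and 11.04. In both, the siControl vehicle array was highest and the siOCT1 responses were small. Ribosome biogenesis genes changed by a median of 0.34, with 3 of 17 positive past 2-fold (17.6%, against 4.04% of all genes). These were NOP16, WDR12 (9.30 and 9.18, then 8.22 and 9.72) and the rRNA methyltransferase fibrillarin (FBL, 1.19). For FBL the change was 0.98 with positive control centring.

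Mitosis and DNA replication genes had medians of opposite sign, a difference that was not tested. Of 33 measured mitosis genes (40 listed), 8 had a change of -1 or lower (24.2%, against 6.21% of all genes) and none of 1 or higher. Their median change was -0.48, with median responses of 0.60 with siControl and 0.11 with siOCT1. CENPF, a kinetochore and nuclear matrix protein, read 9.87 and 11.75 with siControl and 8.53 and 8.33 with siOCT1. ECT2, an exchange factor needed for cytokinesis, read 10.37 and 11.88, then 8.94 and 8.61, and the kinetochore gene NUF2 9.19 and 10.55, then 7.76 and 7.67. Both siOCT1 values of NUF2 lay within 1 of the negative control percentile. For CENPF, ECT2 and NUF2 the siControl DHT array was the highest. The motor gene CENPE read 7.70 and 9.05, then 7.63 and 7.20, and its siOCT1 values also lay within 1 of that limit. ASPM responded by 1.21 and 0.04, DLGAP5 by 1.32 and 0.20, ANLN by 1.02 and -0.06 and TTK by 1.70 and 0.67. In 10 of the 33 genes the change was positive, among them CDC20 (0.36), PTTG1 (0.58), CCNA2 (0.27) and BUB1B (0.70). Median siOCT1 differences of the 33 genes were -1.76 in vehicle and -2.26 in DHT, so these genes were far lower with siOCT1 in both ligand states.

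DNA replication genes had changes of the other sign, with 13 of 14 changes positive (92.9%, against 51.1% of all genes) and a median of 0.54. Of 40 listed, only these 14 were above the limit on every array, so the values do not describe the whole list. The change was past 2-fold for 2 of the 14 (14.3%, against 4.04% of all genes). MCM7 and MCM4, subunits of the replicative helicase, read 12.50 and 12.23, then 9.71 and 10.74, and 12.22 and 11.81, then 8.51 and 9.26. Both were lowest in siOCT1 vehicle. With siOCT1 the ribonucleotide reductase subunit RRM2 read 8.57 and 9.90, against 12.72 and 13.24 with siControl, a change of 0.81. MCM4 changed by 0.94 with positive control centring. Median siOCT1 differences of the 14 genes were -2.56 in vehicle and -2.14 in DHT, again far below siControl in both.

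Among the other lists, ER folding and unfolded protein response genes had 20 of 25 changes negative (median -0.27), against 48.9% of all genes. Only 2 of them passed 2-fold, a share of 8% near the 6.21% of all genes. The ER-stress factor CREB3L2 read 7.62 and 8.76, then 7.62 and 7.60, and SSR1, of the translocon-associated complex, 13.76 and 14.94, then 13.15 and 13.32. Both siOCT1 values of CREB3L2 lay within 1 of the negative control percentile. ER to Golgi transport genes had 23 of 29 negative (79.3%, against 48.9% of all genes), with a median of -0.16. SEC24D at -1.16 and TRAPPC3 at -1.13 passed 2-fold, 6.90% of the list and again near the share of all genes. Prostate transcription factors and coregulators had 17 of 23 negative (73.9%, against 48.9% of all genes), with a median of -0.17. Of these, 4 were past 2-fold (17.4%, against 6.21% of all genes). NRIP1, a corepressor of nuclear receptors, read 7.75 and 9.73 with siControl and 10.41 and 10.48 with siOCT1, so siControl vehicle was the low array. FOXA1 (0.09 and 0.05) and MED1 (0.06 and 0.21) had small responses under both siRNAs, and HOXB13 responded by -0.67 and -0.98.

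Polyamine genes had 9 of 10 negative (90%, against 48.9% of all genes), with a median of -0.08. Several of the 9 were very small, such as AZIN1 and MAT2A (-0.02 each), SMS (-0.04) and OAZ1 (-0.08). SRM was positive (0.82). The 2 past 2-fold (20%, against 6.21% of all genes) were SAT1 and AMD1. AMD1 makes the aminopropyl donor and read 14.25 and 15.47, then 15.97 and 16.12. Glycosylation genes had a median of 0.04, with UGP2 alone past 2-fold at -1.22. Prostate secreted and surface proteins had 3 of 12 higher (25%, against 4.04% of all genes) and 2 lower (16.7%, against 6.21%). The 2 were AMACR and STEAP1 (6.97 and 11.32, then 7.65 and 10.43). KLK4, a prostate kallikrein, responded by 0.27 and 1.45, and TSPAN8 by -2.09 and -0.86. Fatty acid synthesis genes had 2 of 9 higher (22.2%, against 4.04% of all genes). These were the desaturase SCD (15.59 and 14.38, then 12.81 and 12.93) and its regulator SREBF1 (13.83 and 12.90, then 11.16 and 11.46), while FASN responded by 1.37 and 0.38. Sterol synthesis genes had a median of 0.13, with SC5D alone past 2-fold at -1.05.

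The ribosomal protein genes stood at a median of 0.36, with RPL27 the 1 of 17 past 2-fold (1.04). Proteasome genes had a median of 0.26 with PSMA1 alone past the size (1.15), and respiratory chain genes 0.23 with none of 25 past it. Commonly used reference genes stood at a median of 0.25, with PGK1 the 1 of 14 past 2-fold. The p53 targets had a median of -0.04, with AEN, an apoptosis nuclease, at 1.46. Immediate early genes stood at -0.27 with ZFP36, an mRNA decay factor, at -1.40, and interferon-stimulated genes at 0.08 with PARP9 at 1.16 (0.95 with positive control centring). The medians of the sterol, glycosylation, interferon and p53 lists changed sign over the centrings tried. Those of the other 19 lists kept theirs.

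**Figure D3:**
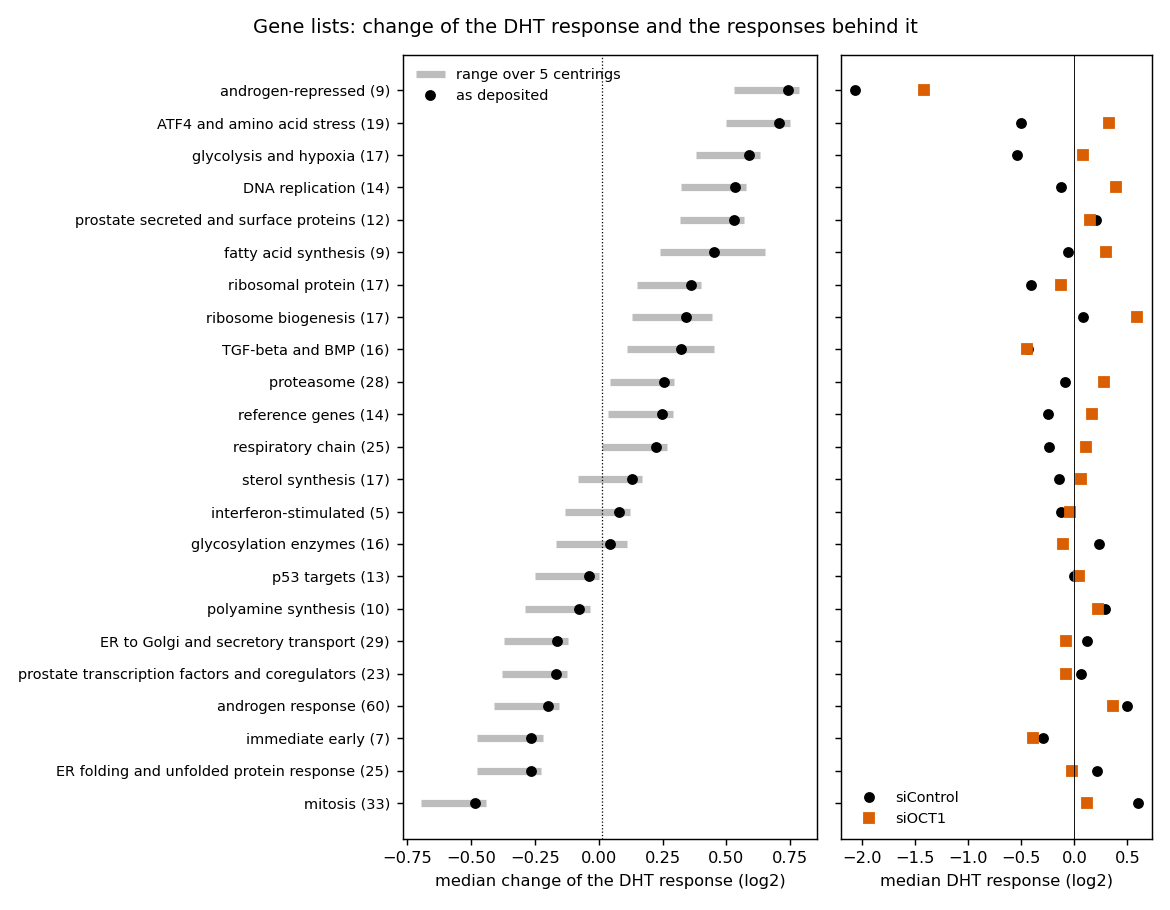
Left, median change of the DHT response (x axis, log2) for 23 gene lists, with the number of measured genes in parentheses; black circles are values as deposited, grey bars the range over 5 centrings, and the dotted line the median of all genes. Right, median DHT response (log2) with siControl (black circles) and siOCT1 (orange squares): the mitosis list stands at 0.60 and 0.11, the ATF4 list at -0.50 and 0.32.

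Gene span, the genomic distance from the first to the last base of a gene in RefSeq, went along with the direction of the change. With the genes ranked by span in 5 equal bins, 5.65% of the shortest bin had a change of 1 or higher and 2.24% of -1 or lower. In the longest bin the shares were 2.79% and 10.5%. Median span was 64.0 kb for the 401 genes with a negative change and 67.5 kb for the 230 genes described first, against 33.65 kb for all genes and 28.2 kb for the 261 with a positive change. The median siOCT1 difference in vehicle went from -0.28 in the shortest to 0.30 in the longest bin, and in DHT from -0.13 to 0.14. After each array was centred along gene span, 267 genes had a positive and 353 a negative change, with 223 and 316 of the original genes among them. AMD1 then changed by -0.95, PIAS1 by -0.91, CREB3L2 by -0.99 and SEC24D by -0.997, RPL27 by 0.89 and TPI1 by 0.86, all under the size. The part of gene length or RNA quality in the changes was not tested beyond this.

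Signal went along with it too. The shares past 2-fold were 5.65% (positive) and 9.83% (negative) in the dimmest of 5 bins, and 1.86% and 2.94% in the brightest. Of the 261 genes with a positive change, 40.6% had an array within 1 of the negative control percentile, against 22.8% of all genes and 26.4% of the 401 with a negative change. Named genes with such an array, not marked above, include ABCA5, KRT19, TNC, SLC2A12, RAB3B, STEAP1, BMP2 and TSPAN8. Others are WIPI1, NPR3, FERMT1, NUP133, CAD, PMEPA1, ITGAV, WDR12, ATAD2, STEAP1B, EFNA5, ZMYM1 and ZFP36. For ITGAV, CAD and PMEPA1 it was the siOCT1 vehicle array, so their siOCT1 responses are read near the floor. The size rule leaves no gap: CCNH at 1.0003 and MRPL27 at 1.004 were inside, and QNG1 at 0.999 and UBE3C at 0.998 outside.

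**Figure D4:**
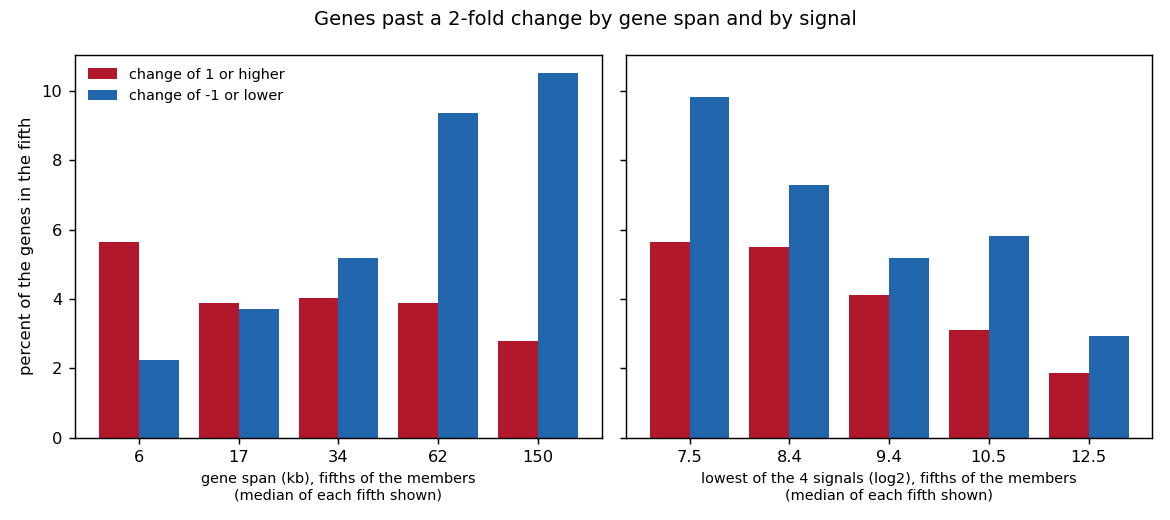
Percent of genes with a change of 1 or higher (red) and of -1 or lower (blue) in 5 equal bins of the 6458 genes, by gene span in kb (left) and by the lowest of the 4 log2 signals (right). Negative changes stand at 10.5% in the bin with the longest genes and 2.24% in the shortest.

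Promoter sequence was looked at because OCT1 recognises the octamer. RefSeq promoters (GRCh38.p14, 250 bases before to 50 after the annotated start) matched 5484 of the 6458 genes. The octamer ATGCAAAT, on either strand, stood in 69 of these (1.26%), in 3 of the 100 lowest and 2 of the 100 highest by change. Its first 7 bases, ATGCAAA, which every octamer also holds, stood in 2.74% of all, 5.56% of those with a negative and 4.52% of those with a positive change. The hexamer AGAACA, one arm of the androgen response element, stood in 8.79%, 8.48% and 11.8%. A match describes letters in a window and names no bound site. Among the named genes past 2-fold, 4 held the 7 bases before their start. Of the named genes under that size, CRIP1 (change 0.08) and JUND (-0.45, a full octamer) held them too and are not shown. The share among named genes was not set against that of all genes. The 4 are shown on the gene's strand, with the matched bases of both forms in capitals (TTTGCAT is the reverse strand).

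SMAD7, chr18:48951082-48951189, minus strand: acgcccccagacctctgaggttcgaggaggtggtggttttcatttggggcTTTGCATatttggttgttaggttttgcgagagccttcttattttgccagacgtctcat
TNC, chr9:115118289-115118396, minus strand: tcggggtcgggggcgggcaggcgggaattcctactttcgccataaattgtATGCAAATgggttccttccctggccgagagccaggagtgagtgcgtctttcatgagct
TSPAN8, chr12:71158169-71158249, minus strand: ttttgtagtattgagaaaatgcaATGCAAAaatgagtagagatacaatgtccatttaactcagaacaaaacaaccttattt
ZMYM1, chr1:35059536-35059735, plus strand: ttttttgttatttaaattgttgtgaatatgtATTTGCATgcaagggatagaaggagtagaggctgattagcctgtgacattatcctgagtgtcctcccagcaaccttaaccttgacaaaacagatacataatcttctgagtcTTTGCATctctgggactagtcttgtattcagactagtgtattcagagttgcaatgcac

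SMAD7, TNC and TSPAN8 were in the class of 63 genes, and ZMYM1 in that of 25. The match in SMAD7 began 174 bases before the start and that in TNC, a full octamer, 189 bases before it. TSPAN8, a tetraspanin, read 9.52 and 7.43 with siControl and 10.24 and 9.38 with siOCT1.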

How the data were processed

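The deposited values are on a log2 scale. Per the submitters' processing notes the tools were RMA and Expression Console, with versions and build not given in the sources used here. That method gives the arrays a common distribution, which hides global shifts of RNA content. Log base 2 follows from the range the values cover, and 327 to 379 values per array exceeded 16, so the scale may be stretched.

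Probe sets were named from the platform table, whose 17709 symbols matched RefSeq by gene ID. Of 6 genes with 2 passing probe sets, the one with the higher mean was used. Differences were taken in Python 3.11.15 with pandas 2.3.3, counted at 2-fold, and the calculation was tested on simulated data. With 1 array per group no test was run.

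The rule for named genes took the 15 highest and 15 lowest by change, the 5 largest of each class, the 5 largest in each direction among genes whose lowest signal exceeded the median of that value, 5 kept responses in each direction, and up to 4 genes with the largest change of each of 23 lists. Of the genes always to be named only IGFBP3 was measured on every array. Other list genes given with their responses (such as ITGAV, STK39, TRIB1, ID1, SMAD2, ASPM, CDC20, FOXA1 and KLK4) fall outside that rule and were chosen after their values were seen. Members and lists were chosen with earlier results of these data known. Symbols of small RNAs and uncharacterised genes (74) were not named by rank. Alternatives were other sizes, filters, centrings, an offset of 32, values capped at 16, the mean of probe sets and leaving out uncharacterised symbols. Centring along gene span (lowess, statsmodels 0.14.6) was added after seeing the data.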

Additional observations from a re-analysis of the deposited data

Results flagged for a closer look

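ABCA5, with a change of -2.89, and CYP1A1, with -2.54, had DHT responses of at least 2-fold in opposite directions under the 2 siRNAs. Each response is 1 pair of arrays, and the difference was not tested. ABCA5 kept a change between -3.10 and -2.67 over the alternatives tried. Transcript probe sets without a gene symbol in the platform table also carried changes: of 896 above the negative control percentile on every array, 91 passed 2-fold (37 positive, 54 negative), a share of 10.2% against 10.3% of the named genes.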

How the results depend on the processing

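The 261 positive and 401 negative changes became 943 and 1093 at 1.5-fold, 6 and 19 at 4-fold, and 1024 and 1146 among 17687 genes with no filter on dim signals. With arrays centred on the positive control probe sets, which moves the median change of all genes from 0.01 to -0.20, they became 142 and 694, or 17.0% positive in place of 39.4%. The other alternatives (a stricter filter, centring on the median of the genes, loess centring along expression or gene span, an offset, a cap at 16, the mean of probe sets, and leaving out uncharacterised symbols) kept both counts within 1.5 times. Of the 134 named genes no called change reversed under any alternative that kept the gene. The stricter filter kept 121 of the 134, so the rest were not assessed there. Positive control centring took 6 of them under the size and 10 past it, gene span centring 6 and 4. No paired analysis was possible because each group holds 1 array. The number of arrays limits the precision of every value, and no spread between cultures is known.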

Other observations

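Zinc finger genes with a ZNF symbol were looked at after their values were seen. Of 192 measured, 40 had a change of -1 or lower (20.8%, against 6.21% of all genes) and 3 of 1 or higher, with a median of -0.45. Their median DHT response was 0.39 with siControl and 0.05 with siOCT1, and their median siOCT1 difference was 0.44 in vehicle and 0.07 in DHT. The 97 on chromosome 19 had 22 negative and no positive changes past 2-fold. ZNF480 read 7.52 and 9.94 with siControl and 9.34 and 9.88 with siOCT1, ZNF91 read 8.18 and 9.59, then 9.99 and 9.66, and ZNF681 read 9.04 and 10.64, then 9.24 and 9.13. In ZNF480 and ZNF91 siControl vehicle was the low array. These genes are close relatives whose probes can share transcripts, so single values are uncertain. Their median span, 29.2 kb, was below the 33.65 kb of all genes.

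Of the 6 genes with 2 passing probe sets, CBS, an enzyme of transsulfuration, changed by 0.99 and 1.02. PRKAR1A gave -0.90 and 0.18, so its probe sets disagreed.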
